A study of Mus with 15 samples.

Results

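Wound tissue of diabetic mice was compared with wound tissue of healthy mice across all genes of an RNA-seq count table. The comparison used 10 of the 15 libraries of the series, chosen by their labels: 5 of wounds from mice with type I diabetes (diabetic wound) and 5 of wounds from healthy mice (healthy wound). The other 5 libraries came from uninjured skin of healthy mice (normal skin); they are in none of the comparisons below, and their levels are given for some genes. The sources used here give neither strain nor age, nor how diabetes arose, the kind of wound or the time after wounding. The labels do not say that each library came from a separate mouse, so the p-values measure only the spread between these samples. Uninjured skin of diabetic mice was not analysed here, so what belongs to the diabetic wound and what to diabetic skin at large cannot be told apart.

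Skin wounds are known to close in overlapping phases: platelets and neutrophils arrive first, macrophages follow and clear debris, keratinocytes migrate over the gap, and fibroblasts and contractile myofibroblasts fill it with a collagen-rich matrix. In diabetes this sequence is known to be slow, with long-lasting inflammation and poor formation of granulation tissue, vessels and matrix. In type I diabetes the pancreas makes too little insulin, and blood glucose is high. RNA from pieces of tissue mixes all of these cell types, so fewer cells of a type and less RNA per cell cannot be told apart.

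The libraries held 15721077 to 16739898 counts in diabetic wound and 17388455 to 17673495 counts in healthy wound. Every diabetic wound library thus held fewer counts than every healthy one (exact two-sided permutation p = 0.00794). The 50 highest genes took 13.8 ± 1.24% of counts in diabetic wound and 17.3 ± 3.3% in healthy wound (SD, n = 5 each, exact two-sided permutation p = 0.0317). The part of depth in the results was not tested. Levels are given in CPM, the count of a gene scaled to the same total in each library. On log2 CPM, the first principal component held 42.4% of the variance, and along it diabetic wounds lay between −22 and 132 and healthy wounds between −63.2 and −36.4. Diabetic wound replicate 5 lay farthest out, at 132, and replicate 4 lay lowest on the second component, at −89.1. Mitochondrial genes took 2.47 ± 0.453% of counts in diabetic wound and 2.43 ± 0.223% in healthy wound (SD, n = 5 each; exact two-sided permutation p = 0.865). Counts in diabetic wound sat on shorter genes: the mean gene length weighted by counts was 5234 ± 222 bases, against 5600 ± 150 bases in healthy wound (exact two-sided permutation p = 0.0159, where 5 against 5 libraries allow no p under 0.00794).

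Of 55657 gene models, 16268 had enough counts to be tested. At a Benjamini-Hochberg adjusted p under 0.05 in edgeR's quasi-likelihood test, 801 genes were called, which is 4.92% of those tested. The calls split into 438 genes higher in diabetic wound (2.69%) and 363 lower (2.23%). The genes called higher had a median log2 fold change of 0.95, and those called lower one of −1.60, against −0.03 over all genes tested. Fold changes are diabetic wound over healthy wound throughout. Without regard to the test, every diabetic wound lay above every healthy wound in CPM for 5.13% of genes and below for 4.87%. The calls crowd near the threshold: the lowest adjusted p was 0.00385, and 791 of the 801 lay at 0.02 or above. An unadjusted p under 0.05 was reached by 4786 genes, or 29.4%.

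The number of calls moved with single libraries. With diabetic wound replicates 1, 2, 3, 4 and 5 left out one after the other, 42, 1, 2689, 1482 and 332 genes were called. Leaving out healthy wound replicates 1 to 5 in the same way left 1, 47, 6, 1 and 1. The single gene called in the 4 smallest fits was Rnase2b; without healthy wound replicate 3 the calls were Rnase2b, Itgam, Pf4, Ppbp, Kif26b and Scube3. All 801 genes kept the direction of their fold change in each of these 10 fits. They had been called on these same libraries, so the kept direction is no independent check. Every count of called members given for a gene list thus holds for the 10 libraries together, and falls to 0 or nearly 0 without diabetic wound replicate 2 or healthy wound replicate 1, 3, 4 or 5. Each is to be read beside the shares over all genes tested, 2.69% called higher and 2.23% called lower. The called genes named in the text were called in 1 to 10 of these 10 fits, with a median of 3, and the number is given for some of them.

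**Figure D1:**
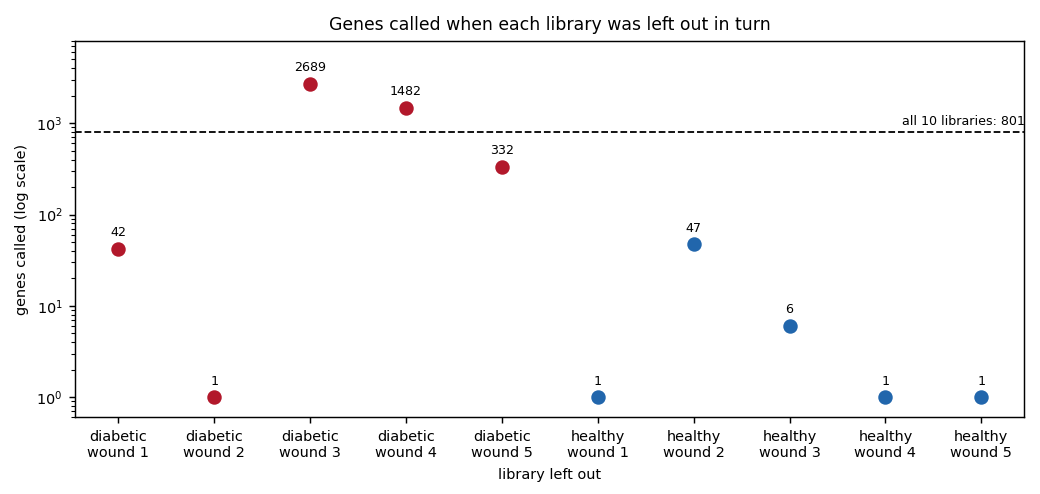
Each point is the number of genes called at an adjusted p under 0.05 (log scale) when the library on the horizontal axis was left out, diabetic wounds in red at the left and healthy wounds in blue at the right; the dashed line marks the 801 genes called with all 10 libraries. Without diabetic wound replicate 3 the count was 2689, and without diabetic wound replicate 2 or healthy wound replicates 1, 4 and 5 it was 1.

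Long genes made up more of the calls that were lower and short genes more of those that were higher. Among protein-coding genes in the fifth with the shortest models (up to 2390 bases), 3.94% were called higher and 1.29% lower. In the fifth with the longest models (from 7419 bases), 1.29% were called higher and 4.39% lower. The part of gene length in any gene's result was not tested.

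The gene with the smallest p in the whole comparison was Rnase2b (ENSMUSG00000059606; chromosome 14, 51162260 to 51163018 as the table gives it), of the eosinophil-associated ribonuclease family. It had 2.04, 0.509, 2.16, 0.991 and 1.14 CPM in diabetic wounds, against 50.4, 31.3, 19.8, 38.8 and 33.9 CPM in healthy wounds. Every diabetic wound lay below every healthy wound. Its log2 fold change was −4.67 (SE 0.42, edgeR adjusted p = 0.00385), and each of the 10 fits without 1 library called it. The family has close copies whose reads the authors' counting could have divided, so its level is uncertain.

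Genes were ranked by fold change where they were called, the groups had no overlap and the higher one averaged at least 10 CPM. The 12 largest rises held several genes of myeloid cells and a platelet gene, Ppbp. They were Ngp (a neutrophil granule protein), Ppbp (the platelet chemokine precursor that yields CXCL7), a (agouti signalling protein, which sets coat colour), Chil3 (a chitinase-like protein of mouse macrophages), Lyz1 (a lysozyme), Mt2 (a metallothionein), Klhl6 (a kelch-like protein), Slc6a12 (a betaine and GABA transporter), Galnt15 (an enzyme that starts O-linked glycans), Ctla2a (an inhibitor of cathepsin-type proteases in mouse), Celsr3 (an atypical cadherin) and Retreg1 (a receptor for turnover of the endoplasmic reticulum). Their log2 fold changes lay between 2.43 for Retreg1 and 6.87 for Ngp. The model of a overlaps 3 protein-coding models, Raly and Eif2s2 among them, and the kit does not mark strand, so its reads could come from a neighbour. The log2 fold change was 3.89 for a, 0.28 for Raly (edgeR adjusted p = 0.179) and 0.80 for Eif2s2 (edgeR adjusted p = 0.0357). The source of the reads of a was not tested. Lyz1 has a close copy in Lyz2, and its reads are uncertain for that reason. Itgam, Bax, Cox4i1, Ndufb8, Ndufs3, Sod1, Mfap4, Col18a1, Tgfb3, Igf2, Ctla2a, Mest and Gapdh, all called, also overlap another protein-coding model. Reads in the shared stretches cannot be told apart, and the length of these stretches was not examined.

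The 12 largest falls, chosen the same way, held genes of hair, cornifying epidermis and activated fibroblasts. They were Prss35 (a serine protease-like gene), Prr9, Sprr2b (a cornified envelope protein with close copies), Prokr2 (a prokineticin receptor), Hoxc13 (a regulator of hair keratins), Lrrc15 (a membrane protein of matrix-making fibroblasts), Lep (leptin of fat cells), Vsig8, Tnn (tenascin N), Rnase2b, Lhx2 (a regulator of hair follicle stem cells) and Col24a1 (a minor fibrillar collagen). Their log2 fold changes lay between −7.40 for Prss35 and −4.21 for Col24a1. Several rest on a few healthy wounds with very high levels. Prss35 had at most 0.864 CPM in any diabetic wound, against 2.12, 1.15, 1.61, 72.9 and 225 CPM in healthy wounds. Hoxc13 had 93.3 CPM in healthy wound replicate 2 and 0.8 to 14.1 CPM in the rest; without that library its log2 fold change was −4.15, against −6.25 with it.

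**Figure D2:**
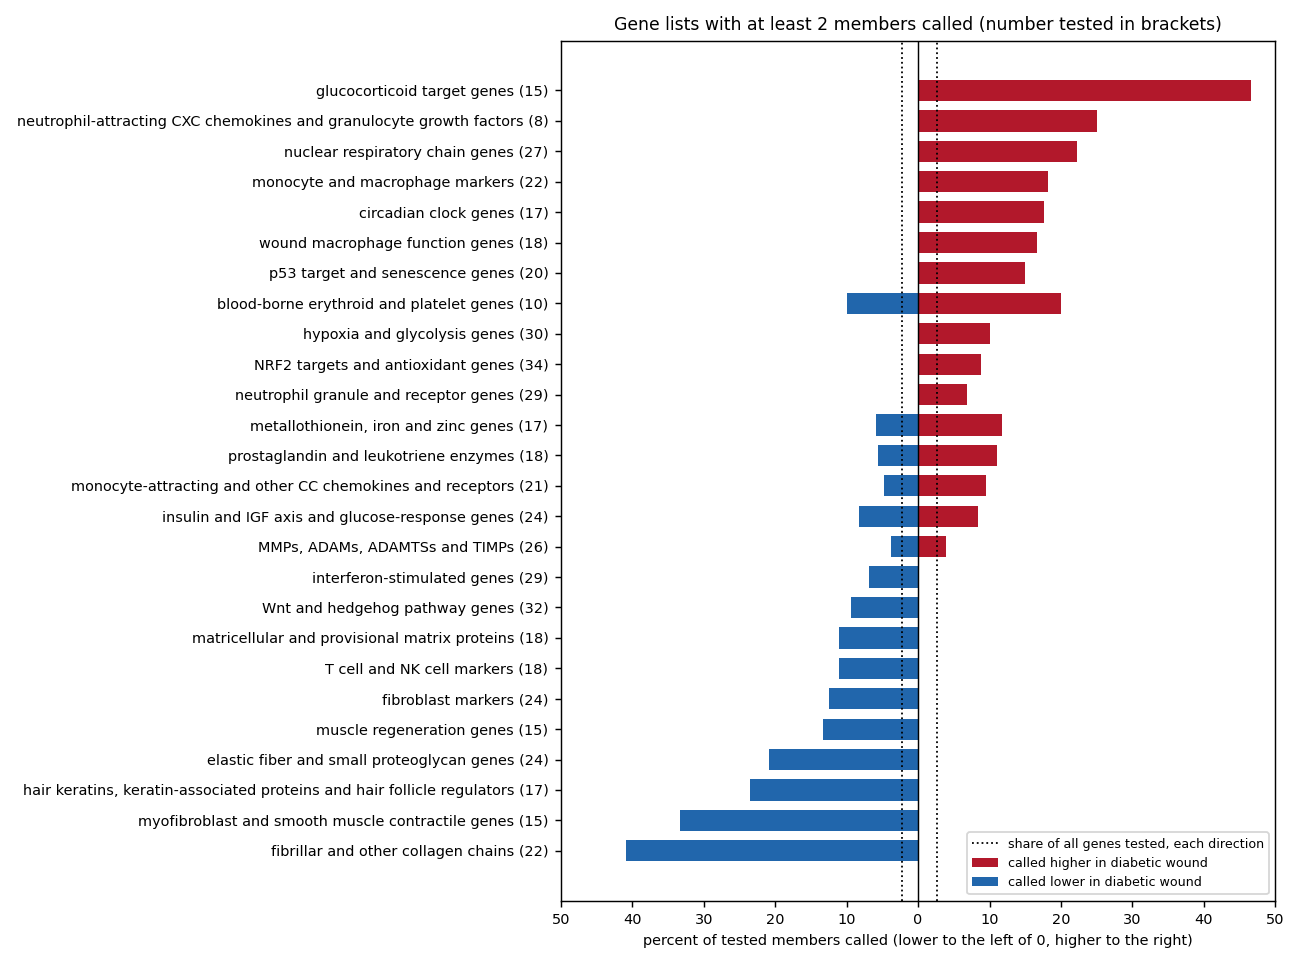
Bars give the percent of tested members called higher (red, right of 0) or lower (blue, left of 0) in diabetic wound for the gene lists with at least 2 called members, with the number tested in brackets; dotted lines mark the share of all genes called in each direction, 2.69% higher and 2.23% lower. Glucocorticoid targets stand at the top and collagen chains at the bottom. The lists were chosen with earlier results of these data known.

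Of the 54 gene lists, collagen chains held the largest share of lower calls. The lists were chosen with earlier results of these data known, so this rank describes them and carries no test. Of 22 collagen chains, all of them tested, 9 fell and none rose, the median log2 fold change was −2.18, and 14 had groups that did not overlap. Over all genes tested, 2.23% were called lower, and 4.87% had every diabetic wound below every healthy wound. The 9 were Col12a1, Col15a1, Col6a1, Col16a1, Col5a2, Col5a1, Col18a1, Col6a2 and Col6a3, which cover fibril-associated, basement membrane zone and beaded-filament collagens and the type V fibril initiators. Without diabetic wound replicates 4 and 5, the 2 that stood apart most, 4.43% of all genes were called, and 12 collagen chains were lower and 1 higher, and the median was −1.98. The median model length of these genes was 7242 bases, just under the fifth with the longest models; the part of length was not tested.

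Col12a1, a collagen on the surface of fibrils in tissue under tension (ENSMUSG00000032332; chromosome 9, 79598991 to 79718831), had 90.2, 90.3, 103, 139 and 54.7 CPM in diabetic wounds. In healthy wounds it had 439, 548, 664, 1349 and 1922 CPM. The highest diabetic wound lay far below the lowest healthy wound. Its log2 fold change was −3.40 (SE 0.47, edgeR adjusted p = 0.0215), and 5 of the 10 fits that left out 1 library called it.

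Col1a1 and Col3a1, the main fibrillar collagens of skin and of young wound matrix, did not pass over all genes although their groups did not overlap. Col1a1 had 3843, 576, 2904, 3431 and 90.2 CPM in diabetic wounds, against 17152, 7481, 15751, 19060 and 32351 CPM in healthy wounds. Its log2 fold change was −3.11 (SE 0.84, edgeR adjusted p = 0.0556). The spread within diabetic wounds is wide, with replicates 2 and 5 far below the other three. Col3a1 averaged 3823 ± 3184 CPM in diabetic wound and 21292 ± 10536 CPM in healthy wound (SD, n = 5 each; log2 fold change −2.51 with SE 0.85, edgeR adjusted p = 0.0887). Together Col1a1, Col1a2 and Col3a1 took 1.21, 0.226, 1.08, 1.37 and 0.0322% of all counts in diabetic wounds, against 4.77, 2.18, 4.37, 5.42 and 9.39% in healthy wounds (exact two-sided permutation p = 0.00794, the smallest that 5 against 5 libraries can give). Normal skin lay at 3.86 ± 0.764% (SD, n = 5), and every diabetic wound lay below every normal skin library, the lowest of which had 2.88%.

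Other matrix genes moved the same way in smaller numbers. Of 24 elastic fiber and small proteoglycan genes, 5 fell and none rose (median log2 fold change −1.26): Fbln5, Mfap4, Fbn2, Efemp2 and Ltbp4, of which Fbln5, Fbn2 and Efemp2 are known to build or organise elastic fibers and Ltbp4 to tether latent TGF-beta. Fbln5 had 52.2, 43.8, 44.7, 65.9 and 40.3 CPM in diabetic wounds and 156, 98.5, 111, 105 and 114 CPM in healthy wounds. No diabetic wound reached the lowest healthy wound, and within each group the libraries lay close together (log2 fold change −1.25 with SE 0.18, edgeR adjusted p = 0.0215). The proteoglycan Bgn, biglycan, averaged 489 ± 328 CPM in diabetic wound and 1839 ± 236 CPM in healthy wound (SD, n = 5 each) without passing (edgeR adjusted p = 0.0553). The collagen chaperone Serpinh1, which folds procollagen in the endoplasmic reticulum, was the only 1 of 20 collagen processing and crosslinking enzymes that passed (log2 fold change −1.86 with SE 0.41, edgeR adjusted p = 0.0404; list median −0.93).

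Matricellular proteins, which signal to cells from the matrix rather than bear load, had 2 of 18 tested members lower and none higher (median −0.68), and none lower when diabetic wound replicates 4 and 5 were left out. Postn, periostin, which is abundant in healing dermis, lay between 87.5 and 428 CPM in diabetic wounds, with a mean of 243 ± 139 CPM (SD, n = 5), against 741, 1163, 1076, 2420 and 4990 CPM in healthy wounds. All diabetic wounds were lower, and healthy wound replicate 5 was highest (log2 fold change −3.14 with SE 0.64, edgeR adjusted p = 0.0352). The second was Tnn, at 3.35 ± 2.8 CPM in diabetic wound and 115 ± 141 CPM in healthy wound (SD, n = 5 each). Fn1, fibronectin, the scaffold of the early wound matrix, averaged 635 ± 411 CPM in diabetic wound and 1540 ± 1200 CPM in healthy wound and did not pass (edgeR adjusted p = 0.158). Among 26 metalloproteases and their inhibitors, Mmp8 was called higher and Adam12 lower. Adam12, a membrane protease of activated fibroblasts, averaged 44.4 ± 25.7 CPM in diabetic wound and 231 ± 95.7 CPM in healthy wound (log2 fold change −2.41 with SE 0.47, edgeR adjusted p = 0.0352).

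**Figure D3:**
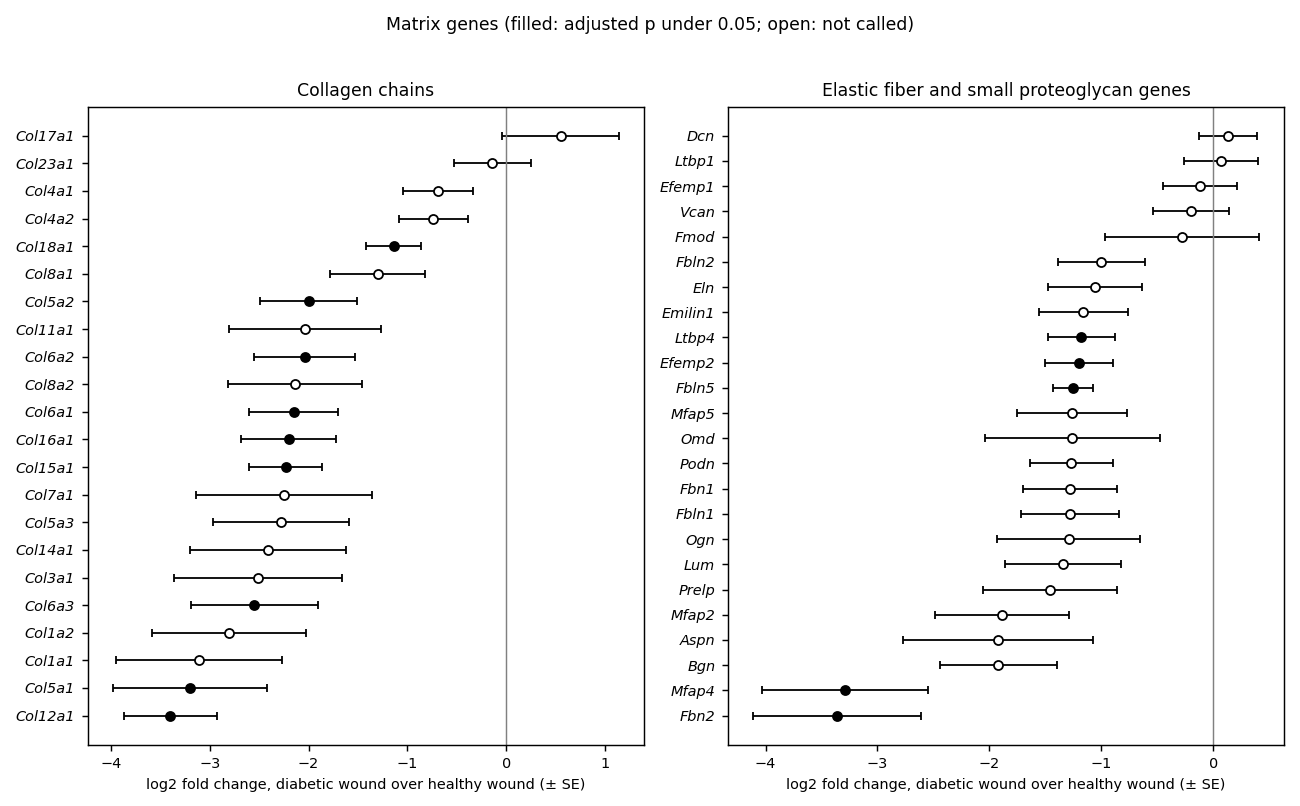
Points give the log2 fold change of diabetic over healthy wound with its SE for each tested collagen chain (left) and each elastic fiber or small proteoglycan gene (right); filled points passed an adjusted p under 0.05. Among collagens 9 of 22 points are filled, all left of 0, and the median is −2.18; on the right 5 of 24 are filled, all left of 0.

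Genes of the cells that make and contract this matrix had the same direction. Of 15 myofibroblast and smooth muscle contractile genes, 5 fell and none rose (median −1.01): Acta2, Mylk, Smtn, Myl9 and Cald1. Acta2, the smooth muscle actin that marks myofibroblasts (ENSMUSG00000035783; chromosome 19, 34241090 to 34255336), had 107, 99.9, 91.9, 133 and 50.2 CPM in diabetic wounds. In healthy wounds it had 447, 277, 264, 250 and 227 CPM, with no overlap between the groups. Its log2 fold change was −1.60 (SE 0.26, edgeR adjusted p = 0.0287), and 3 of the 10 fits that left out 1 library called it. The list counts 3 lower members without diabetic wound replicates 4 and 5. The summed level of the 15 genes overlapped between the groups. It ranged between 1169 and 3871 CPM in diabetic wounds and between 1540 and 4519 CPM in healthy wounds, with medians of 2594 and 3609 CPM. Normal skin lay between 1550 and 6873 CPM. Smooth muscle of vessels and of hair carries the same proteins, and its part in the result was not tested.

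Of 24 fibroblast markers, Lrrc15, Tnn and Pdgfrb fell and none rose (median −1.01). Lrrc15 had 8.23, 0.318, 14.8, 4.65 and 0.119 CPM in diabetic wounds, against 49.2, 455, 125, 350 and 606 CPM in healthy wounds. The diabetic wounds lay below both the healthy wounds and the normal skin mean of 80.9 ± 66 CPM (log2 fold change −5.86 with SE 1.18, edgeR adjusted p = 0.0352). Pdgfrb, a receptor for platelet-derived growth factor on fibroblasts and pericytes, averaged 97 ± 33.3 CPM in diabetic wound and 185 ± 27 CPM in healthy wound (SD, n = 5 each; log2 fold change −0.94 with SE 0.22, edgeR adjusted p = 0.0446). The summed level of the 24 markers ranged between 2325 and 11236 CPM in diabetic wounds and between 16227 and 62091 CPM in healthy wounds. The list holds Col1a1 and Col1a2, which have most of the sum in each healthy wound.

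Lists of signals that drive fibroblasts held 1 call each, near the share of 4.92% called over all genes. Of 24 TGF-beta, activin and BMP pathway genes, only Tgfb3 passed (median −0.11). It had 15.3, 14.9, 13.5, 14.1 and 2.81 CPM in diabetic wounds and 70.4, 43.2, 30.7, 47.6 and 48.4 CPM in healthy wounds. All 5 diabetic wounds lay below the healthy wounds (log2 fold change −1.99 with SE 0.40, edgeR adjusted p = 0.0352). Tgfb1, the isoform most tied to scar formation, averaged 99.5 ± 23.9 CPM in diabetic wound and 140 ± 28 CPM in healthy wound and did not pass (edgeR adjusted p = 0.106). Of 27 growth factors of repair and their receptors, Igf2 alone passed, at 0.409 ± 0.168 CPM in diabetic wound and 3.01 ± 3.15 CPM in healthy wound (log2 fold change −2.83, edgeR adjusted p = 0.0478).

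On the higher side stood single genes of platelets and myeloid cells, while most members of their lists were not called. Of 8 tested neutrophil-attracting chemokines and granulocyte growth factors, Pf4 and Ppbp rose and none fell (median 2.26). Both are platelet chemokines stored in granules. They were also the 2 members that rose among 10 tested erythroid and platelet genes, where Slc4a1, the anion exchanger of red cells, fell (median 0.08). No other platelet gene of that list was called. Gp9, also a platelet gene, was below the count filter, with 24 counts in diabetic wounds and 38 in healthy wounds. Ppbp (ENSMUSG00000029372; chromosome 5, 90768518 to 90770063) had 110, 237, 279, 93.5 and 53.8 CPM in diabetic wounds, against 8.57, 4.59, 14, 4.58 and 6.54 CPM in healthy wounds. The lowest diabetic wound stood several-fold above the highest healthy wound (log2 fold change 4.32 with SE 0.52, edgeR adjusted p = 0.0166; called in 6 of the 10 fits that left out 1 library). Pf4, platelet factor 4, had 545, 615, 676, 610 and 338 CPM in diabetic wounds and 131, 96.2, 187, 105 and 95.3 CPM in healthy wounds (log2 fold change 2.17 with SE 0.25, edgeR adjusted p = 0.0166; called in 6 of 10). Its groups did not overlap either.

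The classical neutrophil chemokines were high in some diabetic wounds only. Cxcl5 had 163, 620, 87.8, 218 and 761 CPM in diabetic wounds, against 98.8, 41.8, 309, 16.4 and 44.6 CPM in healthy wounds. The groups overlapped (log2 fold change 1.87 with SE 0.82, edgeR adjusted p = 0.159), and the log2 fold change was 2.90 without healthy wound replicate 3. For Cxcl1, diabetic wound replicate 5 stood at 684 CPM and the other diabetic wounds at 8.64 to 103 CPM, against 4.36 to 17.8 CPM in healthy wounds (edgeR adjusted p = 0.0647). Il6, a cytokine of acute inflammation, averaged 29.6 ± 34.9 CPM in diabetic wound and 3.63 ± 3.91 CPM in healthy wound and did not pass (edgeR adjusted p = 0.0936). Il1b, the first cytokine of the inflammasome, averaged 264 ± 269 CPM in diabetic wound and 338 ± 362 CPM in healthy wound (edgeR adjusted p = 0.814), and Tnf averaged 23.9 ± 27.2 and 14.5 ± 15.9 CPM in diabetic and healthy wound (edgeR adjusted p = 0.629).

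None of the 12 tested interleukin 1 and 36 family genes, 15 interleukin 6 family genes and 11 genes of the interleukin 10, 17 and 20 families passed. Of 20 TNF family and NF-kappaB feedback genes only Nfkbia, the inhibitor that NF-kappaB itself induces, passed. It averaged 334 ± 223 CPM in diabetic wound and 111 ± 19.7 CPM in healthy wound, with no overlap (log2 fold change 1.59 with SE 0.39, edgeR adjusted p = 0.0449).

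Of 29 tested neutrophil granule and receptor genes, 2 rose, none fell and the median was 0.61; 5 further members were below the count filter. Mmp8, the neutrophil collagenase, had 16.5, 86.4, 127, 72.1 and 36 CPM in diabetic wounds and 17.1, 12, 17.9, 14.9 and 15.3 CPM in healthy wounds. Diabetic wound replicate 1 lay within the healthy range, and the other four above it (log2 fold change 2.11 with SE 0.44, edgeR adjusted p = 0.0357). Ngp rested on diabetic wound replicate 5, with 308 CPM there, 1.48 to 7.38 CPM in the other diabetic wounds and 0.115 to 0.748 CPM in healthy wounds. Without that library its log2 fold change was 2.89, against 6.87 with it (SE 1.72, edgeR adjusted p = 0.0474). S100a9, a subunit of calprotectin, averaged 828 ± 493 CPM in diabetic wound and 1000 ± 620 CPM in healthy wound, and Ly6g, the surface marker of mouse neutrophils, averaged 0.919 ± 0.551 and 1.18 ± 1.28 CPM in diabetic and healthy wound (edgeR adjusted p = 0.743 and 0.802). The list had 1 member higher and a median of 0.15 with diabetic wound replicates 4 and 5 left out.

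Monocyte and macrophage markers had 4 of 22 higher and none lower, with a median of 0.16. The 4 were Itgam, Chil3, F13a1 and Lyve1, and the list had 5 higher members without diabetic wound replicates 4 and 5. Itgam, the integrin CD11b that monocytes and neutrophils use to leave the blood (ENSMUSG00000030786; chromosome 7, 128062640 to 128118491), had 130, 153, 167, 182 and 158 CPM in diabetic wounds. In healthy wounds it had 64.3, 40.6, 66, 46.6 and 63.7 CPM. The groups lay well apart, with little spread within either (log2 fold change 1.48 with SE 0.18, edgeR adjusted p = 0.0166; called in 6 of the 10 fits that left out 1 library). Adgre1, which encodes the mouse macrophage antigen F4/80, averaged 130 ± 86.1 CPM in diabetic wound and 200 ± 89 CPM in healthy wound (edgeR adjusted p = 0.416). The summed level of the 22 markers ranged between 3808 and 9742 CPM in diabetic wounds and between 4513 and 5931 CPM in healthy wounds.

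Genes of macrophage function in wounds had 3 of 18 higher and none lower (median 0.49): Chil3, Msr1 and Marco, the last 2 of them scavenger receptors. Without regard to the test, 2 members lay wholly above the healthy wounds and 2 wholly below. Over all genes tested these shares were 5.13% and 4.87%. With diabetic wound replicates 4 and 5 left out, 4 members were called higher and 1 lower. Chil3 had 150, 512, 108, 239 and 836 CPM in diabetic wounds, against 45.4, 22.6, 45.2, 8.54 and 6.66 CPM in healthy wounds (log2 fold change 3.88 with SE 0.75, edgeR adjusted p = 0.0347). Each diabetic wound stood above the healthy wounds. Msr1 averaged 114 ± 29 CPM in diabetic wound and 55.7 ± 13.6 CPM in healthy wound (log2 fold change 1.03 with SE 0.22, edgeR adjusted p = 0.0352). Arg1, arginase of repair-type macrophages in mouse, averaged 388 ± 268 CPM in diabetic wound and 209 ± 169 CPM in healthy wound, and Nos2, the inducible nitric oxide synthase, averaged 13.6 ± 9.94 and 28.8 ± 34.6 CPM in diabetic and healthy wound. Neither passed (edgeR adjusted p = 0.357 and 0.443), nor did Il10, an anti-inflammatory cytokine, at 2.29 ± 1.52 CPM in diabetic wound and 1.53 ± 0.363 CPM in healthy wound (edgeR adjusted p = 0.377).

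Of 21 CC chemokines and receptors, Ccl6 and Ccl9, both made by mouse myeloid cells, rose, and Cx3cl1, the membrane-bound chemokine fractalkine, fell (median −0.21). Ccl6 averaged 918 ± 419 CPM in diabetic wound and 254 ± 67.5 CPM in healthy wound (SD, n = 5 each, log2 fold change 1.85 with SE 0.36, edgeR adjusted p = 0.0352). For both Ccl6 and Ccl9 the groups overlapped. Of 18 prostaglandin and leukotriene enzymes, the leukotriene pair Alox5 and Alox5ap rose and the prostaglandin D synthase gene Ptgds fell (median −0.06). Alox5ap, which presents arachidonic acid to 5-lipoxygenase, had 97.7, 104, 124, 115 and 119 CPM in diabetic wounds and 68.3, 48.6, 65, 46.3 and 46.2 CPM in healthy wounds. Diabetic wounds were uniformly higher (log2 fold change 1.03 with SE 0.15, edgeR adjusted p = 0.0215; called in 5 of the 10 fits that left out 1 library). Saa2, an acute-phase apolipoprotein, was the only 1 of 24 complement and acute-phase genes called. Diabetic wound replicates 4 and 5 had 302 and 186 CPM of Saa2, the other three had 1.23 to 8.97 CPM, and healthy wounds had 0.402 to 4.3 CPM. Reads can be shared with its close copy Saa1, and no member of the list was called without those libraries. The summed level of the list ranged between 3992 and 20342 CPM in diabetic wounds and between 4061 and 7884 CPM in healthy wounds. Some listed plasma protein genes were below the count filter. Summed over 5 libraries, Itih4 had 4679 counts in diabetic wound and 32 in healthy wound, and Fga 2501 and 30. Serpinc1 and Serpinf2 went the other way, with 27 against 56 and 25 against 32 counts.

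Lymphocyte and interferon genes lay on the lower side. Of 18 tested T cell and NK cell markers, Trac and Cd4 fell and none rose, 17 of 18 had negative fold changes and the median was −1.67; 5 further markers, Cd3e among them, were below the count filter. Cd4, the co-receptor of helper T cells, had 2.35, 0.509, 4.44, 1.12 and 0.119 CPM in diabetic wounds, against 20.5, 9.01, 15.4, 28.2 and 12 CPM in healthy wounds. Healthy wounds were all higher, and normal skin lay with the healthy wounds at 13.2 ± 10.7 CPM (log2 fold change −3.33 with SE 0.72, edgeR adjusted p = 0.0388). Trac, the constant region of the T cell receptor alpha chain, averaged 0.368 ± 0.233 CPM in diabetic wound and 2.25 ± 0.963 CPM in healthy wound (log2 fold change −2.59 with SE 0.54, edgeR adjusted p = 0.0352). Both are low genes, and the lists of B cell and mast cell markers held no call.

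Of 29 tested interferon-stimulated genes, Ifi44 and Ddx58 fell and none rose; 28 of 29 had negative fold changes and the median was −1.06. Ifi44 had 1.92, 0.636, 3.15, 1.12 and 1.31 CPM in diabetic wounds, against 23.5, 5.45, 9.37, 8.32 and 10.8 CPM in healthy wounds. Diabetic wounds stood at the level of normal skin, 2.59 ± 1.2 CPM, and healthy wounds above it (log2 fold change −2.82 with SE 0.50, edgeR adjusted p = 0.0308). Ddx58, which encodes the RNA sensor RIG-I, averaged 23.2 ± 10.2 CPM in diabetic wound and 58 ± 21.1 CPM in healthy wound (log2 fold change −1.33 with SE 0.31, edgeR adjusted p = 0.0439). None of 20 MHC class II and dendritic cell genes passed (median −0.69). Their summed level ranged between 392 and 1768 CPM in diabetic wounds and between 1560 and 3421 CPM in healthy wounds. Neither of the interferon calls held without diabetic wound replicates 4 and 5, where the list median was −0.94.

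**Figure D4:**
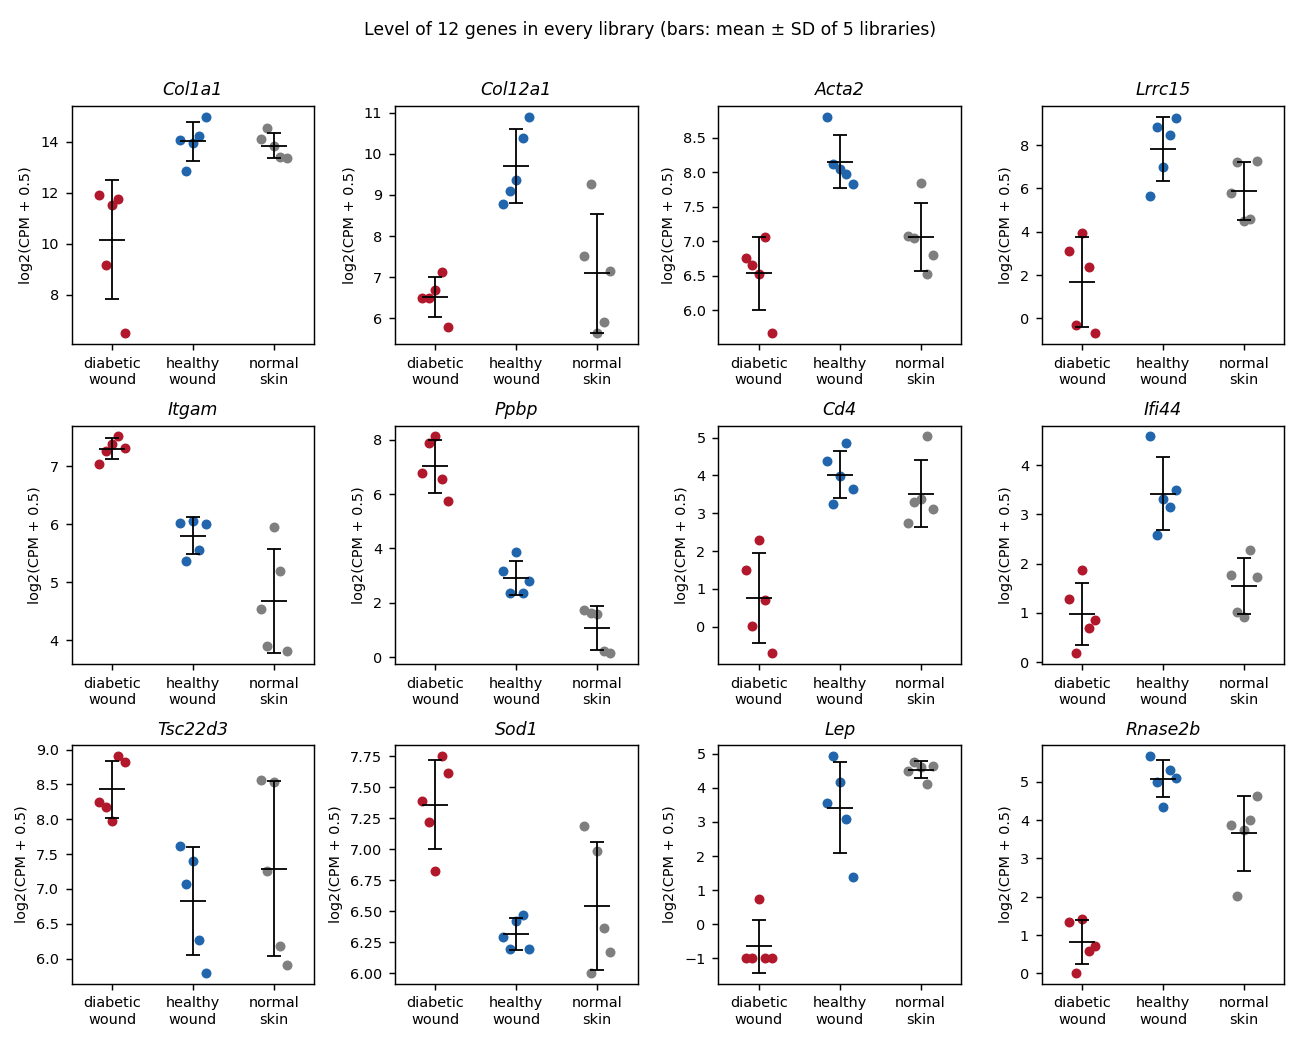
Each point is the level of a gene in 1 library, as log2(CPM + 0.5), in diabetic wounds (red), healthy wounds (blue) and normal skin (grey); bars are the mean and SD of 5 libraries on that scale. For all 12 genes the diabetic and healthy wounds do not overlap, and for Ifi44 the diabetic wounds lie near normal skin. The 12 were picked from the genes named in the text. Over all genes tested, 5.13% lay higher and 4.87% lower in diabetic wound without overlap.

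Genes that glucocorticoid hormones are known to induce held the largest share of higher calls of the 54 lists. This rank too depends on which lists were chosen, with earlier results of these data known. Of 15 such genes, 7 rose and none fell, where 2.69% of all genes rose, and the median was 1.57. The 7 were Mt2, Ddit4, Per1, Klf9, Klf15, Errfi1 and Tsc22d3. Without diabetic wound replicates 4 and 5, 3 were called higher and the median was 1.28. Tsc22d3, which encodes the leucine zipper protein GILZ (ENSMUSG00000031431; chromosome X, 140539528 to 140600659), averaged 355 ± 103 CPM in diabetic wound (SD, n = 5), with 479 CPM in the highest library. In healthy wounds it had 195, 134, 168, 76.6 and 55.1 CPM. Each diabetic wound lay above the highest healthy wound (log2 fold change 1.52 with SE 0.34, edgeR adjusted p = 0.0405; called in 2 of the 10 fits that left out 1 library). Normal skin spread across both, at 207 ± 157 CPM.

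Klf9, a transcription factor induced by the hormone, had 288, 292, 62.1, 248 and 444 CPM in diabetic wounds and 80.3, 66.2, 88.4, 40.7 and 45.7 CPM in healthy wounds. Diabetic wound replicate 3 lay within the healthy range and the other four above it (log2 fold change 2.07 with SE 0.44, edgeR adjusted p = 0.0363). The same replicate was the lowest diabetic wound for Mt2, Per1, Ddit4 and Tsc22d3. Fkbp5, a co-chaperone that damps the receptor, averaged 309 ± 113 CPM in diabetic wound and 159 ± 40.6 CPM in healthy wound and missed the threshold narrowly (edgeR adjusted p = 0.0519).

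Of 17 circadian clock genes, Cry2, Per1 and Nfil3 rose and none fell, with a median of 1.03. Cry2, a repressor in the core clock loop, had 254, 266, 21.3, 100 and 213 CPM in diabetic wounds, against 23.7, 27, 22.3, 17.6 and 18 CPM in healthy wounds (log2 fold change 2.99 with SE 0.55, edgeR adjusted p = 0.0318). Diabetic wound replicate 3 again lay among the healthy wounds. Per1, which both the clock and glucocorticoids induce, averaged 284 ± 170 CPM in diabetic wound and 64.9 ± 22.4 CPM in healthy wound (log2 fold change 2.15 with SE 0.45, edgeR adjusted p = 0.0359). The labels do not give the hour at which tissue was taken. Its part in these values was not tested.

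Among 24 genes of the insulin and IGF axis and of the glucose response, 2 rose and 2 fell (median 0.13). Txnip, a gene known to rise with glucose and to restrain glucose uptake, had 1472, 595, 431, 652 and 902 CPM in diabetic wounds and 479, 338, 305, 298 and 247 CPM in healthy wounds. Diabetic wound replicate 3 lay just inside the healthy range (log2 fold change 1.30 with SE 0.32, edgeR adjusted p = 0.047). Ddit4, an inhibitor of mTORC1 signalling, averaged 300 ± 122 CPM in diabetic wound and 92.2 ± 20.4 CPM in healthy wound, with no overlap (log2 fold change 1.70 with SE 0.32, edgeR adjusted p = 0.0319). Igfbp5, a binding protein for insulin-like growth factors, averaged 85.9 ± 58.8 CPM in diabetic wound and 445 ± 128 CPM in healthy wound, also with no overlap (log2 fold change −2.39 with SE 0.51, edgeR adjusted p = 0.0363). Igf2 was the other member that fell. Igf1 averaged 50.9 ± 33.4 CPM in diabetic wound and 142 ± 40.7 CPM in healthy wound and did not pass (edgeR adjusted p = 0.0646). Insr, the insulin receptor, averaged 90.4 ± 41.3 CPM in diabetic wound and 75.3 ± 15.9 CPM in healthy wound (edgeR adjusted p = 0.53).

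**Figure D5:**
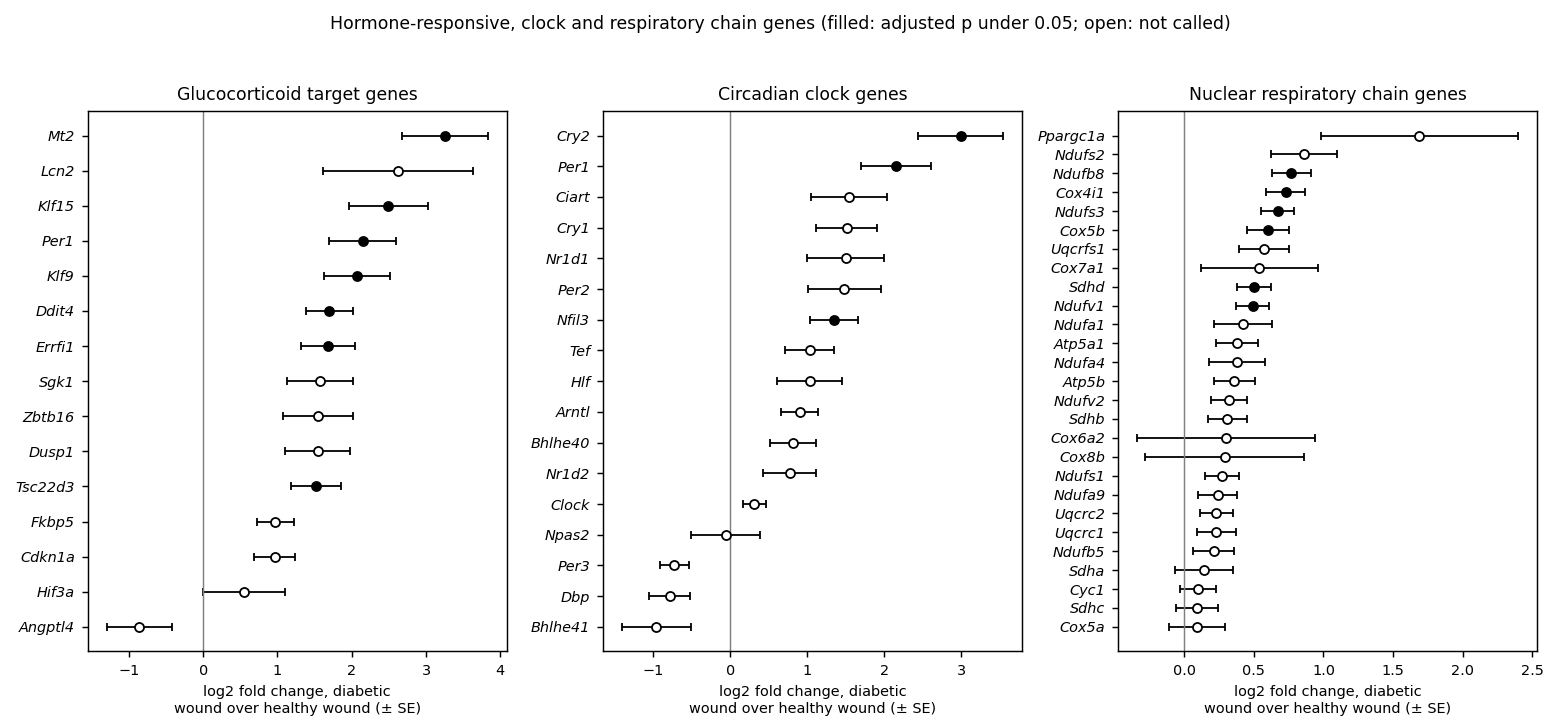
Points give the log2 fold change of diabetic over healthy wound with its SE for each tested glucocorticoid target (left), clock gene (middle) and nuclear respiratory chain gene (right); filled points passed an adjusted p under 0.05. Filled points number 7 of 15, 3 of 17 and 6 of 27, all right of 0, and all 27 respiratory chain genes lie right of 0.

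Genes of the respiratory chain lay higher in diabetic than in healthy wound by small amounts. All 27 nuclear genes of the respiratory chain had positive fold changes, 6 rose and none fell, and the median was 0.36: Ndufb8, Ndufs3, Cox4i1, Sdhd, Cox5b and Ndufv1. Cox4i1, a subunit of cytochrome c oxidase, had 482, 417, 371, 386 and 391 CPM in diabetic wounds, against 240, 250, 249, 286 and 206 CPM in healthy wounds. There was no overlap, and the libraries of each group lay close together (log2 fold change 0.73 with SE 0.14, edgeR adjusted p = 0.0332). Ndufs3, of complex I, averaged 76 ± 5.95 CPM in diabetic wound and 48 ± 5.31 CPM in healthy wound (log2 fold change 0.67 with SE 0.12, edgeR adjusted p = 0.031). The summed level of the list ranged between 3852 and 4908 CPM in diabetic wounds and between 2727 and 3635 CPM in healthy wounds. Normal skin lay with the diabetic wounds, between 3876 and 4952 CPM. With diabetic wound replicates 4 and 5 left out, 3 members were called higher and the median was 0.39. The median model length of the list was 2178 bases, in the range where more genes were called higher, and the share of counts from the mitochondrial genome itself was alike in the groups.

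Of 34 NRF2 targets and antioxidant genes, 3 rose and none fell, where 2.69% of all genes rose. Positive fold changes were seen in 29 of the 34, and the median was 0.59. Sod1, the cytosolic superoxide dismutase, had 167, 149, 113, 215 and 196 CPM in diabetic wounds, against 78.1, 73, 85.2, 88.3 and 72.9 CPM in healthy wounds. The lowest diabetic wound exceeded the highest healthy wound (log2 fold change 1.08 with SE 0.18, edgeR adjusted p = 0.0288). Nqo1, a quinone reductase and classic target of the oxidant-sensing factor NRF2, averaged 25.2 ± 10.2 CPM in diabetic wound and 9.47 ± 2.96 CPM in healthy wound (log2 fold change 1.41 with SE 0.31, edgeR adjusted p = 0.0375). The third was the peroxiredoxin Prdx6. Hmox1, heme oxygenase 1, averaged 651 ± 346 CPM in diabetic wound and 288 ± 46.8 CPM in healthy wound and did not pass (edgeR adjusted p = 0.0553).

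Of 17 metallothionein, iron and zinc genes, Mt2 and Mt1 rose and the iron exporter gene Slc40a1 fell (median 0.40). Mt2, which binds zinc and copper, had 113, 221, 40.8, 229 and 396 CPM in diabetic wounds, against 18.8, 10.7, 40.4, 17.7 and 18.4 CPM in healthy wounds. The lowest diabetic and the highest healthy wound lay side by side (log2 fold change 3.25 with SE 0.58, edgeR adjusted p = 0.0308). Only 1 member of the list was called higher when diabetic wound replicates 4 and 5 were left out, and the median was −0.03.

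Of 30 hypoxia and glycolysis genes, Pkm, Gpi1 and Gapdh rose and none fell, while the median was 0.07. Pkm, pyruvate kinase, averaged 2331 ± 350 CPM in diabetic wound and 1303 ± 147 CPM in healthy wound (log2 fold change 0.83 with SE 0.18, edgeR adjusted p = 0.0404). Gapdh was counted at only 76.5 ± 73.6 CPM in diabetic wound and 8.27 ± 3.62 CPM in healthy wound; it has many near-identical pseudogenes among which reads could be divided, so its value is uncertain. Vegfa, the hypoxia-induced growth factor of vessels, averaged 85.9 ± 44.4 CPM in diabetic wound and 64.4 ± 23 CPM in healthy wound (edgeR adjusted p = 0.529).

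Of 20 p53 targets and senescence genes, Trp53inp1, Bax and Mdm2 rose and none fell (median 0.42), where 2.69% of all genes rose. Bax, which opens mitochondria in cell death, had 60.2, 79.8, 64.7, 52.9 and 80.4 CPM in diabetic wounds and 41.5, 32.4, 38.6, 46.6 and 40.7 CPM in healthy wounds. Diabetic wounds all lay higher (log2 fold change 0.76 with SE 0.17, edgeR adjusted p = 0.0405). Mdm2, the ligase that returns p53 to low levels, averaged 137 ± 57.8 CPM in diabetic wound and 61.1 ± 9.48 CPM in healthy wound (log2 fold change 1.18 with SE 0.27, edgeR adjusted p = 0.0418). None of 29 cell cycle and replication genes passed (median −0.41). Mki67, a marker of dividing cells, averaged 97.6 ± 64.4 CPM in diabetic wound and 205 ± 39.6 CPM in healthy wound (edgeR adjusted p = 0.13). Of 27 heat shock and immediate early genes only Fosl1, a subunit of the transcription factor AP-1, rose (log2 fold change 1.92 with SE 0.40, edgeR adjusted p = 0.0352). None of 23 unfolded protein and integrated stress response genes passed.

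Hair follicle genes held large falls with a wide spread between libraries. Of 17 tested members, 4 fell and none rose (median −2.91): Lhx2, Tchh, Hoxc13 and Msx1. Another 17 listed hair genes were below the count filter, most of them hair keratins. Their counts summed over 5 libraries lay between 0 and 26 in diabetic wound and between 0 and 60970, for Krt71, in healthy wound. The summed level of the whole list ranged between 24.6 and 120 CPM in diabetic wounds, between 100 and 14347 CPM in healthy wounds, and between 159 and 7791 CPM in normal skin. Tchh, trichohyalin of the inner root sheath, had 4.39, 8.14, 9.75, 4.27 and 6.87 CPM in diabetic wounds, against 21.8, 4420, 7.48, 704 and 180 CPM in healthy wounds. Healthy wound replicate 3 lay among the diabetic wounds, and replicate 2 held most of the signal (log2 fold change −7.28 with SE 1.61, edgeR adjusted p = 0.0404). Growing follicles in a piece of skin also vary with the hair cycle and the area cut, which the sources used here do not give. No member of the list was called without diabetic wound replicates 4 and 5.

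Of 32 Wnt and hedgehog pathway genes, which steer follicle growth and dermal fibroblasts, 3 fell and none rose (median −1.0). Fzd1, a Wnt receptor, had 78.7, 62.7, 51, 45.6 and 58.5 CPM in diabetic wounds and 108, 229, 118, 142 and 157 CPM in healthy wounds. Diabetic wounds all lay lower (log2 fold change −1.34 with SE 0.23, edgeR adjusted p = 0.0288). Hhip, which encodes a protein that binds hedgehog ligands, fell as well, at a log2 fold change of −3.91 (edgeR adjusted p = 0.0338). Hedgehog and hair genes are active in the same follicles, and the part of follicle content in these values was not tested.

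Epidermal genes varied widely between diabetic wounds. None of 15 basal keratinocyte and anchoring genes (median 0.07) and none of 31 suprabasal and cornified genes (median −0.56) passed, and Serpinb3a alone fell among 26 wound-edge keratinocyte genes (median −0.46). Krt14, the keratin of basal cells, had 4497, 4353, 12587, 710 and 1260 CPM in diabetic wounds, against 3922, 6795, 4956, 7429 and 9067 CPM in healthy wounds. Diabetic wound replicates 4 and 5 lay lowest and replicate 3 highest (edgeR adjusted p = 0.629). The same order held for Krt6a, a keratin of migrating epidermis, at 180 and 227 CPM in replicates 4 and 5 and 3231 CPM in replicate 3, against 1085 to 2369 CPM in healthy wounds (edgeR adjusted p = 0.618). Krt10, the keratin of suprabasal cells, averaged 1240 ± 1104 CPM in diabetic wound and 2401 ± 1749 CPM in healthy wound (edgeR adjusted p = 0.445). Without replicates 4 and 5 the basal list had 4 members called higher and a median of 0.68, and the suprabasal and cornified list had no call and a median of 0.11. Serpinb3a, a serpin of stressed epidermis, averaged 4.01 ± 3.36 CPM in diabetic wound and 55.7 ± 52 CPM in healthy wound (log2 fold change −3.79 with SE 0.81, edgeR adjusted p = 0.0365).

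Genes of fat and muscle varied widely between libraries. Of 20 adipocyte genes only Lep passed (median −0.14). Lep had 1.17 CPM in diabetic wound replicate 3 and 0 in the other diabetic wounds, against 11.3, 30, 17.4, 7.92 and 2.12 CPM in healthy wounds and 22.8 ± 3.76 CPM in normal skin. No overlap was seen (log2 fold change −5.82 with SE 1.22, edgeR adjusted p = 0.0356). Without diabetic wound replicate 3 the diabetic group holds no count of it, and the fitted value of −10.84 has no size of its own. The summed adipocyte level ranged between 1803 and 10282 CPM in diabetic wounds and between 1355 and 3889 CPM in healthy wounds, with medians of 1958 CPM in diabetic wounds and 3047 CPM in healthy wounds. With diabetic wound replicates 4 and 5 left out, 2 members were called lower and the median log2 fold change was −0.99.

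Of 23 skeletal muscle genes, Ky alone fell and the median was 0.75. Of 15 muscle regeneration genes, Ncam1 and Myh8 fell, none rose and all 15 had negative fold changes (median −1.73). Ncam1, an adhesion molecule of new fibers and of nerves, had 14.7, 4.52, 10.3, 7.87 and 3.05 CPM in diabetic wounds and 53.2, 23.5, 28.9, 27.3 and 37.4 CPM in healthy wounds, with no overlap (log2 fold change −2.08 with SE 0.41, edgeR adjusted p = 0.0352). Myh8, the perinatal myosin heavy chain, averaged 3.11 ± 4.45 CPM in diabetic wound and 49.3 ± 27.9 CPM in healthy wound (log2 fold change −3.98 with SE 0.88, edgeR adjusted p = 0.0401). Neither was called without diabetic wound replicates 4 and 5. The summed level of the skeletal muscle genes ranged between 3005 and 26030 CPM in diabetic wounds and between 2130 and 14865 CPM in healthy wounds.

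Vessel genes held no call with all 10 libraries. None of 24 endothelial identity genes (median −0.24) and none of 19 VEGF and angiopoietin pathway genes (median −0.63) passed, where 4.92% of all genes did. With diabetic wound replicates 4 and 5 left out, each list had 1 member called lower, and the medians were −0.74 and −0.64. Pecam1, an adhesion molecule of endothelium, averaged 221 ± 92.2 CPM in diabetic wound and 271 ± 89.8 CPM in healthy wound (edgeR adjusted p = 0.555). Cxcl12, the chemokine that draws progenitor cells through CXCR4, averaged 249 ± 126 CPM in diabetic wound and 613 ± 355 CPM in healthy wound and did not pass (log2 fold change −1.29 with SE 0.44, edgeR adjusted p = 0.091). Aplnr, the apelin receptor of sprouting endothelium, came close, at 26.4 ± 23.2 CPM in diabetic wound and 147 ± 65.2 CPM in healthy wound (log2 fold change −2.49 with SE 0.64, edgeR adjusted p = 0.0513), and it passed without diabetic wound replicates 4 and 5 (edgeR adjusted p = 0.0376). Lists of melanocyte, Schwann cell, pattern receptor and homeostatic chemokine genes also held no call with all 10 libraries, and Fads2, a fatty acid desaturase, was the only 1 of 19 sebaceous gland genes to fall (log2 fold change −1.31 with SE 0.22, edgeR adjusted p = 0.0287).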

How the data were processed

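The authors deposited a table of raw read counts per gene model, with 1 column for each library and no pooling, per the file headers; per the labels' protocols, poly-A-selected RNA was made into libraries without strand marking. The sources used here name no aligner, counter or genome build. The gene lengths and coordinates are those the authors deposited. Models without a symbol (1125) held 0.0836 to 0.586% of counts and were kept.

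The 5 diabetic and 5 healthy wound libraries were fitted alone with edgeR 4.0.16 (R 4.3.3): filterByExpr, TMM scaling and the robust quasi-likelihood F test, with Benjamini-Hochberg adjustment over all genes tested and a threshold of 0.05. The SE is the log2 fold change divided by the root of F. CPM is the count over the library's total count. Library totals, shares of counts and mean gene length were compared by exact two-sided permutation. Replicates of a group differed by more than sampling noise. Alternatives used DESeq2 1.42.0 and limma 3.58.1, other scalings and filters, and left out libraries. The fit was tested on simulated data.

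Named genes were the 12 with the largest rise and the 12 with the largest fall that were called, had no overlap between the groups and averaged at least 10 CPM in the higher one, leaving out clone and predicted names; in each list described, the 3 members with the smallest p and the 2 with the highest CPM; and a set of wound genes. Not all of these are printed. Other named genes were chosen after their values were seen. The members and the 54 gene lists were chosen with earlier results of these data known. One listed gene is counted but not reported here.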

Additional observations from a re-analysis of the deposited data

Results flagged for a closer look

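Among the 10 libraries, single values that stood apart from the other 4 of their group were looked for by Dixon's test, which marks about 1 in 20 groups by chance. Of 316 group values examined, 16 were marked, which is about that chance share. Diabetic wound replicate 3 stood apart in 4 genes. Errfi1, an inhibitor of EGF receptor signalling, had 117 CPM there and 362 to 414 CPM in the other diabetic wounds. Klf15, a glucocorticoid-induced regulator of metabolism, had 7.83 CPM there and 42.4 to 79 CPM in the others. Lep had 1.17 CPM there and 0 in the others, and Ptgds had 0.74 CPM there and 0.124 to 0.247 CPM in the others.

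Diabetic wound replicate 5 was high for Ngp, at 308 CPM, and low for Ccl9, at 184 CPM where the others had 563 to 846 CPM, and for Tgfb3, at 2.81 CPM where they had 13.5 to 15.3 CPM. For Fkbp5, diabetic wound replicate 4 had 508 CPM, and the others lay between 221 and 279 CPM. For Vsig8, diabetic wound replicate 1 had 0.0618 CPM, and the others lay between 0.496 and 0.74 CPM. In diabetic wound replicate 2, hemoglobin genes took 0.146% of counts, against 0.0541 to 0.0713% in the others, and the 50 highest genes took 11.7%, against 13.9 to 14.8%.

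In healthy wounds, replicate 1 had 70.5 CPM of Psmb9, and the others 14.9 to 21.7 CPM. Replicate 2 had 365 CPM of Ltbp4, against 140 to 182 CPM in the others, and 0.115 CPM of Ngp, against 0.572 to 0.748 CPM. Replicate 3 had 616 CPM of Mt1, against 170 to 244 CPM in the others, and 20 CPM of Kif26b, a kinesin family gene, against 61.5 to 84.6 CPM.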

How the results depend on the processing

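The number of genes called was 801 (438 higher and 363 lower in diabetic wound). It lay between 755 and 874 with RLE, upper-quartile or library-size scaling, and was 779 with a stricter count filter and 752 without diabetic wound replicates 4 and 5; 429 of those 752 were among the 801, and 70 of the 117 called genes named in the text were among them. limma-voom called 912 genes, 367 higher and 545 lower. No low-count filter left 364 calls (186 higher, 178 lower). DESeq2 called 3130 (1769 higher, 1361 lower), limma-voom with quality weights 3337 (1615 higher, 1722 lower), and a fit over all 3 groups 1567 (878 higher, 689 lower). Tested against a minimum log2 fold change of 1, 1 gene passed, 0 higher and 1 lower. Leaving out 1 library gave between 1 and 2689 calls, with 0 to 1588 higher and 1 to 1101 lower. The cause was not tested.

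The 117 called genes named in the text kept their direction in all 10 fits that left out 1 library. Being called on these same libraries, they give no independent check by this. Changes of sign were limited, among named genes, to 7 that were not called. With 1 library left out, the log2 fold change ranged between −1.21 and 0.16 for Il1b, −0.02 and 0.41 for Insr, −0.67 and 0.51 for Ly6g, −0.56 and 0.11 for S100a9, and −0.28 and 1.56 for Tnf. Without diabetic wound replicates 4 and 5 it was −0.18 for Insr, 0.14 for Krt14, 0.11 for Krt6a and −0.19 for Tnf. With limma-voom it was 0.10 for Il1b and 0.48 for Ly6g.

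Same-numbered diabetic and healthy wounds did not vary together: the correlation of their deviations from the group means lay between −0.242 and 0.112 over 5 pairs, and 1 diabetic wound correlated best with its own number. With the replicate number as a block, 8 genes were called, 5 higher and 3 lower, and Ly6g had a log2 fold change of 0.07. Depth was 15721077 to 17673495 counts a library, so genes near or under 1 CPM, such as Trac and Hhip in diabetic wound, rest on few counts.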

Other observations

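Some gene families outside the lists of the report held calls in 1 direction only; they were chosen after their values were seen, so their counts describe these libraries and carry no test. Of 42 tested subunits, activators and inhibitors of the proteasome, the complex that degrades tagged proteins, 17 rose in diabetic wound and none fell, where 2.69% of all genes rose, and the median log2 fold change was 0.61. Psmc1, an ATPase of its regulatory cap, had 235, 205, 177, 254 and 255 CPM in diabetic wounds, against 104, 115, 113, 113 and 99.3 CPM in healthy wounds. The groups did not overlap (log2 fold change 1.05 with SE 0.14, edgeR adjusted p = 0.0205). Psmb9, an interferon-induced subunit, did not pass and had a negative fold change, at 12.7 ± 9.14 CPM in diabetic wound and 29.7 ± 23 CPM in healthy wound (SD, n = 5 each; edgeR adjusted p = 0.151). Without diabetic wound replicates 4 and 5, 13 members were called higher. Of 74 mitochondrial ribosomal protein genes, 8 rose and none fell (median 0.28). Of 82 cytosolic ribosomal protein genes, 3 rose with all libraries and 30 rose without diabetic wound replicates 4 and 5 (medians 0.45 and 0.70); they have many pseudogenes among which reads could be divided.

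Of 19 tested imprinted genes, 6 fell and none rose (median −1.16), where 2.23% of all genes fell. Such genes are expressed from 1 parental copy, and several are known to act in growth before birth. H19, a noncoding RNA made beside Igf2, had 175, 81.2, 65.4, 115 and 64 CPM in diabetic wounds, against 640, 315, 654, 401 and 641 CPM in healthy wounds. The groups did not overlap, and normal skin averaged 636 ± 523 CPM (log2 fold change −2.41 with SE 0.35, edgeR adjusted p = 0.0215). The others that fell were Plagl1, Mest, Mirg, Meg3 and Igf2; 3 of the family were called lower without diabetic wound replicates 4 and 5. Cirbp and Rbm3, RNA-binding proteins known to rise in cold cells, both rose. Cirbp had 83.6, 86.2, 43.5, 43.5 and 120 CPM in diabetic wounds and 15.6, 18.8, 24.8, 23.4 and 21.1 CPM in healthy wounds, with no overlap (log2 fold change 1.86 with SE 0.31, edgeR adjusted p = 0.0287). Rbm3 had a log2 fold change of 1.02 (SE 0.18, edgeR adjusted p = 0.0308). The labels give no tissue or body temperature.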
